A study of Mus musculus with 12 samples.

Results

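Plaque-associated microglia genes are the genes that microglia, the phagocytes that reside in brain tissue, are known to raise when they gather around amyloid plaques. Here they are a list of 36 genes with this role in mouse models, chosen by name but with earlier results of these data known. A gene was represented by a probe set that the platform annotation gives to that gene alone, and by the brightest over all 12 arrays where it had more than 1 such probe set. By this rule 35 of the 36 genes were represented among the 41345 probe sets of the array. Spp1 was the gene without one, and it was not analysed here. All 35 lay above a log2 intensity of 4 on every array, so that none was lost to the filter on low values.

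RNA was taken from the hippocampus of Tg2576 mice, in which a hamster prion promoter drives a human amyloid precursor protein that bears the Swedish mutation, and which form amyloid plaques with age. The methods describe female mice on a C57BL/6/SJL background, whereas the labels give the strain as B6.Cg-Tg(APPswe)E1-2Dbo/J. By the labels, the mice of all groups were 16 to 18 months old, were treated for 4 weeks, were tested for fear conditioning and in the Morris water maze meanwhile, and were killed 24 h after treatment ended. The methods describe these tests for vehicle and CM-695 mice, and place the killing 24 h after the last probe trial of the maze. There were 4 groups with 3 Affymetrix arrays each, which the labels call biological replicates. The vehicle group received 10% DMSO and 10% Tween-20 in saline by the methods, and saline by the labels. The CM-695 group received 40 mg/kg of an inhibitor of histone deacetylase 6 and phosphodiesterase 9, intraperitoneally and 6 times a week. The CM-414 group received an inhibitor of class I histone deacetylases, histone deacetylase 6 and phosphodiesterase 5. The group named SAHA and tadalafil received the histone deacetylase inhibitor vorinostat together with a phosphodiesterase 5 inhibitor, and the doses of these last groups are not given in the sources used here. All groups carried the transgene, and no arrays of non-transgenic mice were analysed here.

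Microglia sense lipids and debris at the plaque through TREM2, a surface receptor that signals through its adaptor TYROBP. Near plaques, and in part through TREM2, microglia lower the genes of their resting state. They raise a set of genes for phagocytosis, lysosomal digestion, lipid handling and chemokines. In mice without Trem2 this switch is known to be incomplete, and the cells enclose plaques poorly. Several genes of the set are not particular to microglia: Apoe and Timp2 are also made by other cells of the brain, Cadm1 by neurons, Fth1, Ctsb and Ctsd by most cells. In bulk tissue such as this, fewer cells of a type and less RNA per cell cannot be told apart.

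The arrays were alike in general, with correlations across probe sets between 0.978 and 0.991 and 0 identical pairs. The first principal component held 23.6% of the variance and set apart SAHA and tadalafil replicate 1, CM-695 replicate 3 and vehicle replicate 2. Over the plaque-associated genes the arrays differed as well. Vehicle replicate 1, which the component did not set apart, was the highest of the 12 arrays for 14 of the 35 genes, whereas it was the highest for 5.86% of all probe sets. Its median deviation from the mean of 12 arrays was 0.15 on the log2 scale over the 35 genes, and -0.01 over all probe sets. At the other end, CM-695 replicate 3 was the lowest of the 12 arrays for 10 of the 35 genes, against 12.3% of all probe sets, and it was the highest for 0. Its median deviation was -0.11. Vehicle replicate 2 was the lowest for 6 of the 35 genes, against 12.9% of all probe sets. It had 19 of the 35 genes below their mean, and its median deviation was -0.08. The medians of the vehicle arrays for this set therefore ranged from -0.08 to 0.15, and each comparison with vehicle rests on the same 3 vehicle arrays. Other microglial lists, described below, also had their highest array mean in the vehicle group, but which vehicle array this was is not given here. That mean was 8.24 for genes of the resting state and 7.28 for genes shared by all microglia and macrophages. The lowest means of these lists were 7.78 with CM-414 and 6.75 with CM-695.

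**Figure D1:**
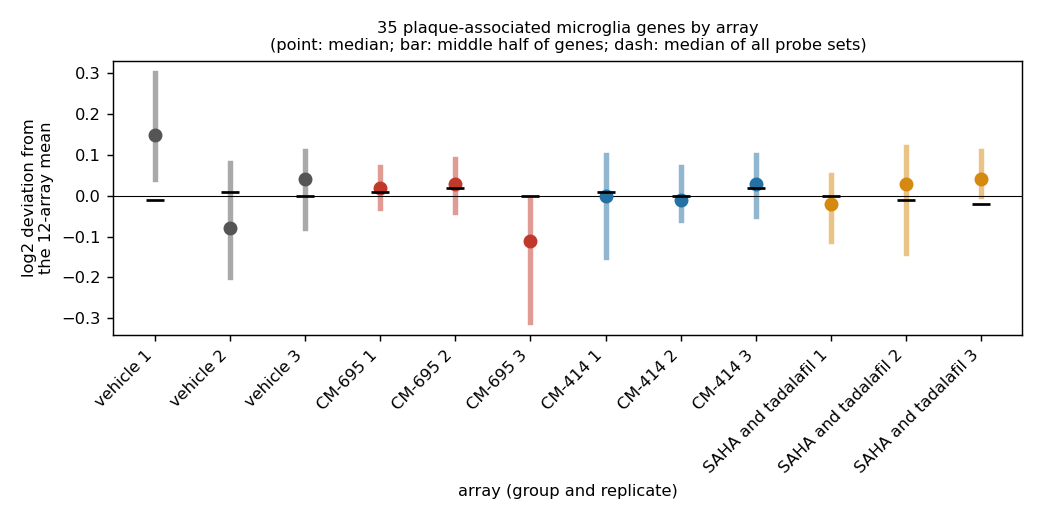
Deviation of the 35 plaque-associated genes from their mean over 12 arrays, on the log2 scale, for each array named by group and replicate. The point is the median of the 35 genes, the bar spans the genes from the lower to the upper quartile and the dash is the median of all probe sets: vehicle replicate 1 is highest with a median of 0.15 and CM-695 replicate 3 lowest with -0.11.

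With CM-695, Gpnmb fell and no other of the 35 genes passed the study's threshold, an unadjusted limma p under 0.01. Of all probe sets tested, 0.753% were lower and 0.364% higher at this threshold. Most genes of the set lay slightly below vehicle: 25 of 35 had a negative log2 fold change, against 48% of all probe sets, and the median was -0.082 over the 35 genes and 0.0071 over all probe sets. Without vehicle replicate 1 the median was -0.0031 and 19 of 35 were negative. Without CM-695 replicate 3 it was -0.041 and 20 of 35 were negative. The 3 CM-695 arrays lay below the 3 vehicle arrays for 5 genes (Trem2, Tyrobp, Gpnmb, Ctsd and Cybb), where 5.15% of all probe sets did so, and above them for 2 (Ch25h and Timp2), where 5.28% did.

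With CM-414, Timp2 rose and no other of the 35 genes passed the same threshold, where 0.921% of all probe sets were lower and 1.53% higher. Negative log2 fold changes were found for 22 of 35 genes, against 48.8% of all probe sets, and the median was -0.033. This median changed sign with the vehicle arrays. It was 0.038, with 16 negative, without vehicle replicate 1, and -0.13, with 25 negative, without vehicle replicate 2. With all arrays and the mean of all probe sets of each gene, the median was -0.091, with 22 negative. The CM-414 arrays lay below all vehicle arrays for 5 genes (Trem2, Tyrobp, Axl, Ctsz and Ccl6), where 7.38% of all probe sets did, and above them for 4 (Ch25h, Ank, Timp2 and Cadm1), where 9.85% did.

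With SAHA and tadalafil, 0 of the 35 genes passed an unadjusted limma p under 0.01, where 0.563% of all probe sets were lower and 0.56% higher, and 1 gene, Ctsd, passed 0.05. Negative log2 fold changes were found for 16 of 35 genes, against 52.7% of all probe sets, with a median of 0.0092. Without vehicle replicate 1 the median was 0.059 with 10 negative, and without vehicle replicate 2 it was -0.08 with 24 negative. These arrays lay below all vehicle arrays for 3 genes (Itgax, Ctsd and Ccl6), where 4.88% of all probe sets did, and above them for 0, where 4.41% did.

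After Benjamini-Hochberg adjustment over all probe sets tested in limma, 0 of the 35 genes had an adjusted p under 0.05 in any comparison, and of all probe sets 0% did with CM-695 and CM-414 and 0.00284% with SAHA and tadalafil. The lowest adjusted p among them was 0.871 with CM-695, 0.404 with CM-414 and 0.952 with SAHA and tadalafil. At an unadjusted p under 0.05, 3 genes were lower with CM-695, where 3.03% of all probe sets were. With CM-414, 2 were lower and 1 higher, where 3.77% and 5.59% of all probe sets were, and with SAHA and tadalafil 1 was lower, where 2.89% were. The counts of genes without overlap were taken again without the 3 arrays that stood apart on principal component analysis, a count added after seeing the data, and groups of fewer arrays overlap less often. The arrays left out include vehicle replicate 2, with a median deviation of -0.08 for this set, whereas vehicle replicate 1, the highest (0.15), stayed in. A shift of the vehicle group and a change with treatment cannot be told apart in these counts. With CM-695, 13 genes were then lower than vehicle, where 20.2% of all probe sets were, and 5 higher, where 24.6% were. With CM-414, 12 were lower, where 14.1% of all probe sets were, and 4 higher, where 17.2% were. With SAHA and tadalafil, 10 were lower, where 20% were, and 5 higher, where 15.8% were. The medians in this setting were -0.077 with CM-695, -0.13 with CM-414 and -0.064 with SAHA and tadalafil. An exact permutation test of 3 arrays against 3 cannot give a two-sided p below 0.1.

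**Figure D2:**
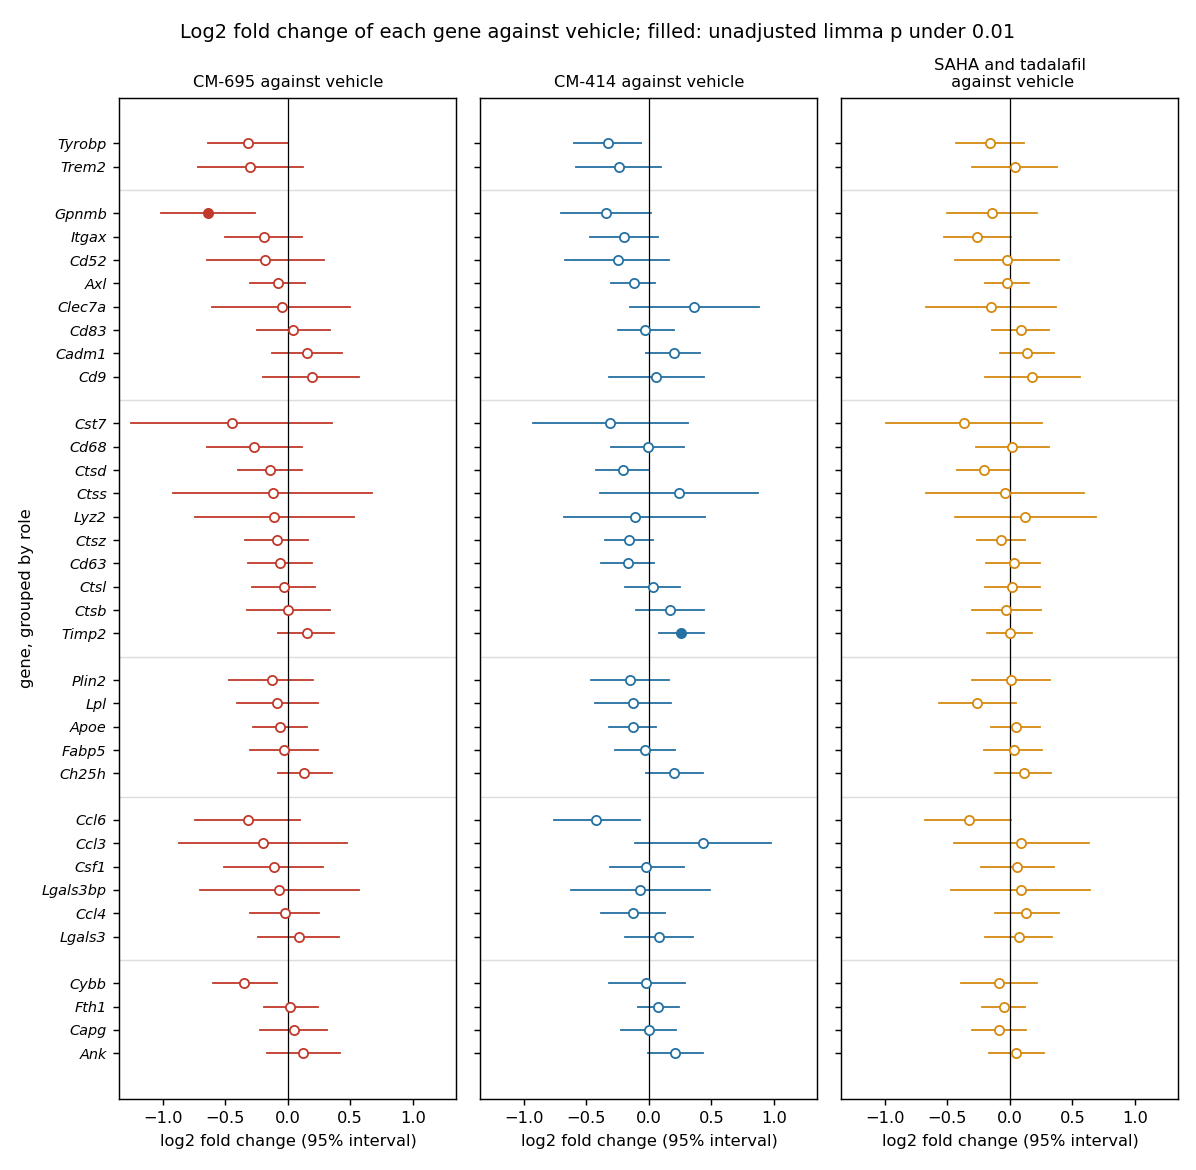
Log2 fold change against vehicle of each of the 35 genes, grouped by role, with a panel for each treatment. Points are limma estimates from 3 arrays per group, bars are 95% intervals, and filled points have an unadjusted p under 0.01: Gpnmb with CM-695 at -0.64 and Timp2 with CM-414 at 0.26.

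The TREM2 receptor and its adaptor form a group of their own within the set. Trem2 had log2 intensities of 7.90, 7.82 and 7.81 on the vehicle arrays, 7.76, 7.74 and 7.12 with CM-695, 7.54, 7.70 and 7.56 with CM-414, and 7.70, 8.04 and 7.89 with SAHA and tadalafil. All CM-695 and CM-414 arrays were lower than all vehicle arrays, but a pair of the CM-695 arrays lay just under the vehicle values and replicate 3 far below them. The log2 fold change was -0.30 ± 0.18 (SE) with CM-695 and -0.24 ± 0.16 with CM-414, and neither passed the threshold (adjusted p = 0.992 and 0.667 from limma). Without CM-695 replicate 3 the value with CM-695 was -0.09. With SAHA and tadalafil it was 0.04, and the arrays overlapped with vehicle.

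Tyrobp, the adaptor that carries the signal of TREM2 into the cell, was 7.59, 7.39 and 7.43 on the vehicle arrays. It was 7.14, 7.38 and 6.94 with CM-695, 7.25, 7.22 and 6.96 with CM-414, and 7.20, 7.35 and 7.39 with SAHA and tadalafil. Like Trem2, it was lower on all arrays of CM-695 and CM-414 than on all vehicle arrays, although CM-695 replicate 2 was close to vehicle replicate 2. The log2 fold change was -0.32 ± 0.13 with CM-695 (unadjusted p = 0.0476, adjusted p = 0.981 from limma). With CM-414 it was -0.33 ± 0.12 (unadjusted p = 0.0215, adjusted p = 0.468 from limma). With SAHA and tadalafil it was -0.16 ± 0.12, with overlapping arrays. Without vehicle replicate 1, the limma p rose to 0.143 with CM-695 and to 0.0799 with CM-414.

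A list of 14 genes linked to TREM2 and TYROBP signalling included the kinases Syk and Btk and the phospholipase Plcg2. It also held inhibitors such as Cd33 and Ptpn6, so that the direction of a change does not give the direction of signalling. In this list 0 genes had an unadjusted limma p under 0.01 in any comparison with vehicle. Negative log2 fold changes were found for 11 of the 14 genes with CM-695, 10 with CM-414 and 9 with SAHA and tadalafil. Of all probe sets, 48%, 48.8% and 52.7% were negative. In this order, which is kept for later values given in threes, the medians of the list were -0.11, -0.013 and -0.017. Blnk, an adaptor that links SYK to phospholipase C, was the gene of this list at an unadjusted p under 0.05, and it was so in each comparison, with log2 fold changes of -0.35, -0.26 and -0.28. It was chosen for mention after its values were seen, and the comparisons share the vehicle arrays.

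Gpnmb and Timp2 passed the threshold in a comparison with vehicle, whereas Trem2 and Cybb did not. The promoters of these genes are shown so that the sequence next to each start site can be read beside the values. They are RefSeq sequences of GRCm38.p6, from 250 bases before to 50 bases after the annotated start, 5′ to 3′ on the strand of the gene. Capitals mark GAGGAA, the core bound by the microglial factor PU.1, and TGANTCA, the AP-1 element, each searched on both strands, so that GAGGAA may be printed as its reverse complement. CACGTG, the E-box core bound by TFEB and MITF, regulators of lysosomal genes, was also searched. Gpnmb lies at chr6:49036268-49036567 on the plus strand, Trem2 at chr17:48346151-48346450 on the plus strand, Cybb at chrX:9469275-9469574 on the minus strand and Timp2 at chr11:118355362-118355661 on the minus strand.
Gpnmb: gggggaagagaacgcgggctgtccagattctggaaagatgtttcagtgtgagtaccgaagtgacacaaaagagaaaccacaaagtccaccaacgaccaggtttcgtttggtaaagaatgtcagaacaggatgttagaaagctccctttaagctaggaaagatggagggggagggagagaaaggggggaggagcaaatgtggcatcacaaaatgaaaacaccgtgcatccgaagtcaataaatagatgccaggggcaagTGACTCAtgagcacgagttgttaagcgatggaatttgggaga
Trem2: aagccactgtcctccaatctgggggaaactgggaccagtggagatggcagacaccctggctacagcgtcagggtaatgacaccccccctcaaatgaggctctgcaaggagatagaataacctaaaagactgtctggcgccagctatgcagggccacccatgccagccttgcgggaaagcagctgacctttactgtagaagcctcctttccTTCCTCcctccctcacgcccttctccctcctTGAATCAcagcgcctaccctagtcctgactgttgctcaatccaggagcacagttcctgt
Cybb: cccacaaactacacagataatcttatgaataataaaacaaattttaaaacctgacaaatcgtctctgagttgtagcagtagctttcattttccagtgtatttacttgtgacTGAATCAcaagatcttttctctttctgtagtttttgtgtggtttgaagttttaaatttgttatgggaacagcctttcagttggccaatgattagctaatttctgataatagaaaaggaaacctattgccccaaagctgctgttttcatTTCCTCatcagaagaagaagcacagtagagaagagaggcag
Timp2: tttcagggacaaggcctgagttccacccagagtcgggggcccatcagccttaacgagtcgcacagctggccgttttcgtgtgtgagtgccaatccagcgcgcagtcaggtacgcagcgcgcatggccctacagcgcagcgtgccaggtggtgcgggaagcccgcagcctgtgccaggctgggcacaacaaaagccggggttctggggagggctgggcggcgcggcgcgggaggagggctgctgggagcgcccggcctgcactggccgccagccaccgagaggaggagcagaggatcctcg
The Gpnmb window held 1 AP-1 element just after the start, Trem2 and Cybb held 1 element of each marked kind, and Timp2 held 0 of the 3 motifs. Promoters were listed for 28 of the 36 genes, Spp1 among them, with 33 windows. Apoe, Clec7a, Spp1 and Fth1 had more than 1 window, so that windows are not separate genes. GAGGAA was in 14 of these 33 windows (42.4%), from 12 of the 28 genes, against 28.3% of 32851 promoters of the same length. TGANTCA was in 6 windows (18.2%) against 7.81%, and CACGTG in 3 (9.09%) against 7.15%. These are counts of letters in a window and not of bound sites.

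Gpnmb encodes a glycoprotein of phagocytes that is found on lysosomes and at the cell surface, and it belongs to the group of surface receptors and adhesion molecules. Its log2 intensities were 7.72, 7.29 and 7.19 on the vehicle arrays and 6.90, 6.58 and 6.81 with CM-695. They were 6.87, 7.09 and 7.22 with CM-414 and 7.38, 7.0 and 7.41 with SAHA and tadalafil. The CM-695 arrays all lay under the lowest vehicle array, whereas the arrays of the other treatments overlapped with vehicle. Gpnmb fell to 0.642 of the vehicle level with CM-695, a log2 fold change of -0.64 ± 0.16 (95% interval -1.02 to -0.26, unadjusted p = 0.00544, adjusted p = 0.871 from limma). With CM-414 it was -0.34 ± 0.16 (unadjusted p = 0.0609 from limma), and -0.18 without vehicle replicate 1 (unadjusted p = 0.269 from limma). With SAHA and tadalafil it was -0.14 ± 0.16 (unadjusted p = 0.421 from limma). With CM-695 the direction did not depend on a single array: over 18 alternative settings the value ranged from -0.80 to -0.48. The call did, since the limma p was 0.013 without vehicle replicate 1, 0.0219 without CM-695 replicate 2 and 0.0138 without CM-695 replicate 3.

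The other surface molecules of the group did not follow Gpnmb past the threshold in any comparison. Itgax, an integrin chain (CD11c) that marks microglia near plaques, was 6.45, 6.75 and 6.52 on the vehicle arrays. It was 6.33, 6.56 and 6.25 with CM-695, 6.51, 6.25 and 6.35 with CM-414, and 6.39, 6.13 and 6.42 with SAHA and tadalafil. The last group did not overlap with vehicle (log2 fold change -0.26 ± 0.12, unadjusted p = 0.0603 from limma), and the fold changes of the others were -0.19 and -0.20. Clec7a, the β-glucan receptor dectin-1, varied more within groups: it was 6.01, 6.09 and 5.24 with vehicle and 5.92, 5.75 and 5.51 with CM-695. It was 6.42, 6.0 and 6.0 with CM-414, and 6.0, 5.35 and 5.54 with SAHA and tadalafil. Vehicle replicate 3 was the lowest of the 12 arrays for this gene, and its log2 fold changes of -0.05, 0.36 and -0.15 each lay within a 95% interval that spanned 0.

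Axl, a receptor tyrosine kinase for the clearance of dying cells, was 8.99, 8.85 and 8.85 with vehicle and 8.85, 8.84 and 8.75 with CM-695. It was 8.84, 8.68 and 8.80 with CM-414, and 8.83, 8.94 and 8.85 with SAHA and tadalafil. Its 12 arrays spanned 0.31 in all, and the CM-414 arrays lay just below all vehicle arrays, with a log2 fold change of -0.12 ± 0.08 (unadjusted p = 0.157 from limma). Cadm1, an adhesion molecule of the immunoglobulin family, was 9.55, 9.83 and 9.72 with vehicle and 9.85, 9.98 and 9.72 with CM-695. It was 9.83, 9.93 and 9.93 with CM-414, and 9.81, 9.77 and 9.92 with SAHA and tadalafil. The CM-414 values lay at or above the highest vehicle value, with a log2 fold change of 0.20 ± 0.10 (unadjusted p = 0.0663 from limma). The remaining molecules, Cd9, Cd52 and Cd83, overlapped with vehicle in every comparison, with log2 fold changes from -0.25 to 0.19.

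**Figure D3:**
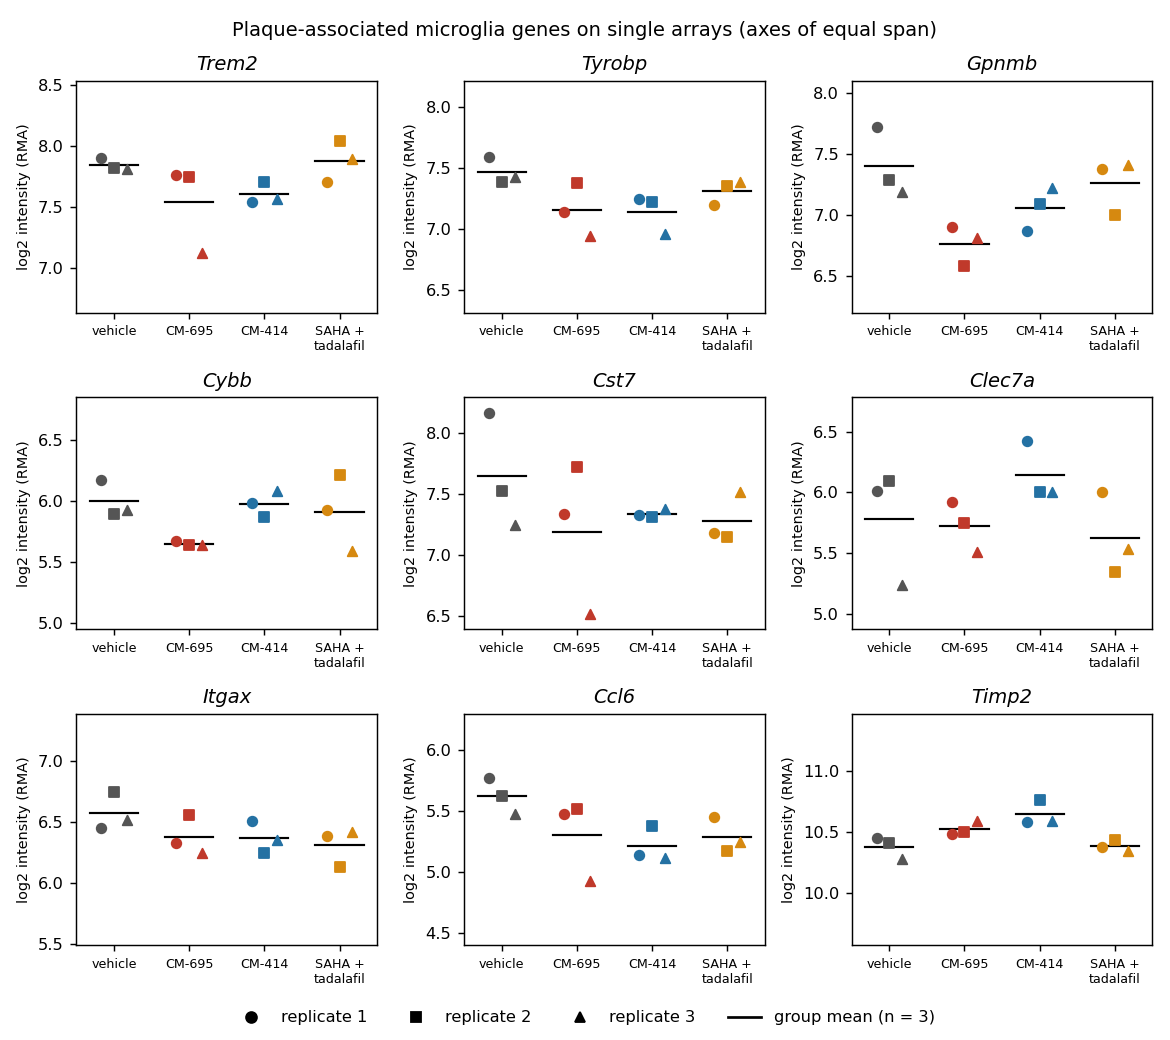
Log2 intensity on single arrays of 9 plaque-associated genes in the 4 groups, with symbols for the replicate number and a line for the mean of 3 arrays. Panels have axes of equal span: Gpnmb and Cybb are lower on all CM-695 arrays than on all vehicle arrays, and Timp2 is higher on all CM-414 arrays.

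The genes of lysosome and proteolysis were the most numerous, with 10 members. Timp2, an inhibitor of metalloproteinases that also helps to activate one of them, was 10.45, 10.41 and 10.28 on the vehicle arrays and 10.48, 10.50 and 10.59 with CM-695. It was 10.58, 10.76 and 10.59 with CM-414, and 10.38, 10.43 and 10.34 with SAHA and tadalafil. All CM-695 and all CM-414 arrays were above all vehicle arrays, while the arrays of SAHA and tadalafil fell within the range of vehicle. Timp2 rose 1.2-fold with CM-414, a log2 fold change of 0.26 ± 0.08 (95% interval 0.08 to 0.44, unadjusted p = 0.00878, adjusted p = 0.404 from limma). With CM-695 it was 0.15 ± 0.10 (unadjusted p = 0.171 from limma), and with SAHA and tadalafil it was 0. The call with CM-414 was held in 8 of 18 alternative settings, where the log2 fold change ranged from 0.20 to 0.30 and the limma p from 0.00293 to 0.044.

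Among the proteases, Ctsd (cathepsin D, an aspartic protease) was 11.29, 11.03 and 11.00 with vehicle and 11.00, 10.92 and 10.98 with CM-695. It was 10.79, 10.90 and 11.01 with CM-414, and 10.89, 10.84 and 10.97 with SAHA and tadalafil. Vehicle replicate 1 was the highest array. The CM-695 arrays and those of SAHA and tadalafil lay below all vehicle arrays, although CM-695 replicate 1 and vehicle replicate 3 were equal to 2 decimals. The log2 fold change with SAHA and tadalafil was -0.21 ± 0.09 (unadjusted p = 0.0466, adjusted p = 0.952 from limma), and without vehicle replicate 1 it was -0.12 with a limma p of 0.211. With CM-414 it was also -0.21, and with CM-695 -0.14. Without vehicle replicate 1 these became -0.12 and -0.05.

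Ctsb (cathepsin B, a cysteine protease) was 11.97, 11.69 and 11.77 with vehicle and 12, 11.88 and 11.57 with CM-695. It was 12.05, 11.97 and 11.92 with CM-414, and 11.63, 11.88 and 11.85 with SAHA and tadalafil. Its groups overlapped with vehicle in each comparison, and the log2 fold changes were 0, 0.17 and -0.03. Ctsz (cathepsin Z) was 9.41, 9.29 and 9.36 with vehicle and 9.26, 9.40 and 9.12 with CM-695. It was 9.14, 9.15 and 9.28 with CM-414, just under the vehicle range (log2 fold change -0.16 ± 0.09, unadjusted p = 0.0899 from limma), and 9.30, 9.27 and 9.29 with SAHA and tadalafil.

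Cst7, which encodes the cathepsin inhibitor cystatin F and is hardly found in resting microglia, had the widest range over the 12 arrays of the 35 genes. It was 8.17, 7.53 and 7.25 with vehicle and 7.34, 7.72 and 6.52 with CM-695. It was 7.33, 7.31 and 7.38 with CM-414, and 7.18, 7.15 and 7.52 with SAHA and tadalafil. The highest array was vehicle replicate 1 and the lowest CM-695 replicate 3, so that the log2 fold changes of -0.45 ± 0.34, -0.31 ± 0.28 and -0.37 ± 0.28 did not exceed the spread between arrays.

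Cd68, a membrane protein of the phagocyte lysosome, was 9.07, 8.67 and 8.94 with vehicle and 8.79, 8.75 and 8.33 with CM-695. It was 8.88, 8.82 and 8.94 with CM-414, and 8.96, 8.95 and 8.84 with SAHA and tadalafil. The log2 fold changes were -0.27 ± 0.16, -0.01 ± 0.13 and 0.02 ± 0.13, and the groups overlapped. Cd63, Ctsl, Ctss and Lyz2 overlapped with vehicle in every comparison, with log2 fold changes from -0.17 to 0.24. Ctss (cathepsin S, a cysteine protease) shared its lowest array, CM-695 replicate 3 at 8.52, with Cst7 and Trem2.

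**Figure D4:**
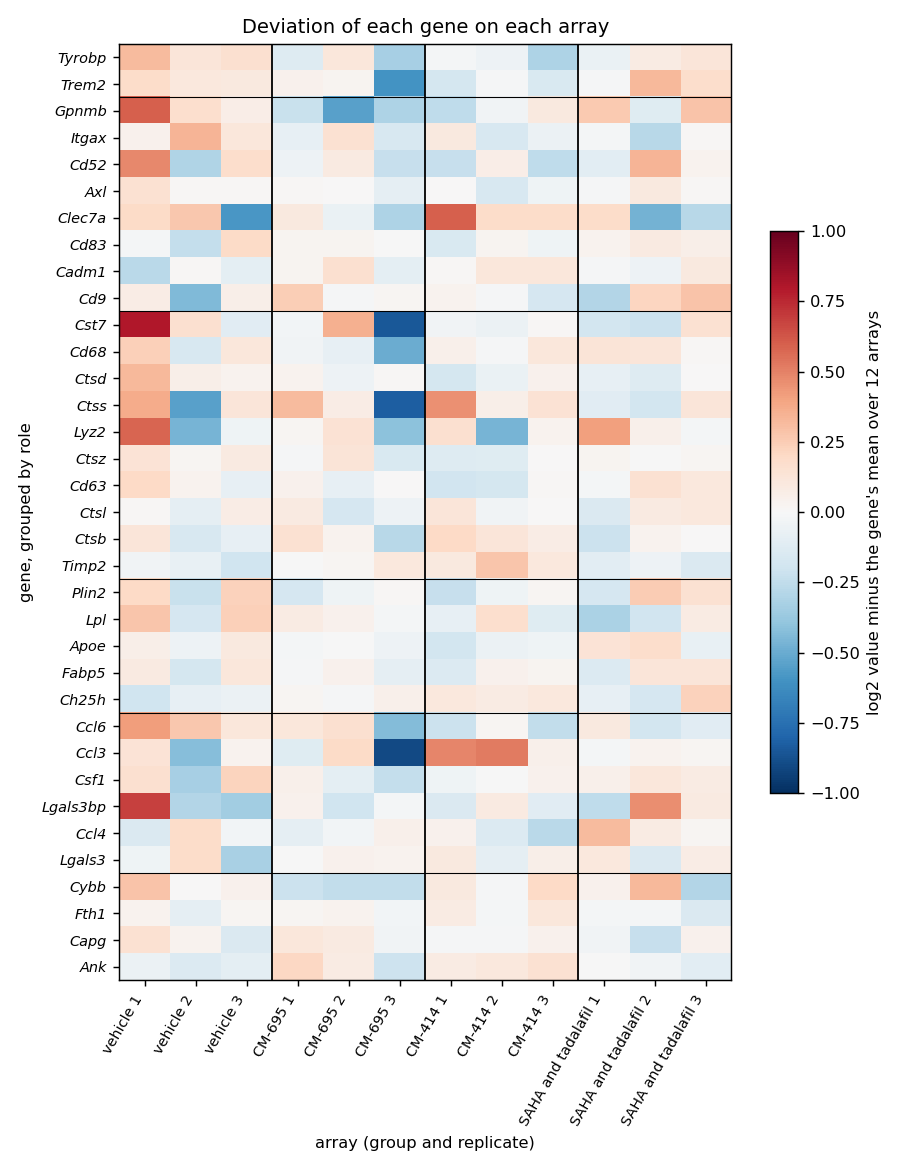
Log2 value of each of the 35 genes minus its mean over 12 arrays, with genes in rows grouped by role and arrays in columns grouped by treatment; red is above and blue below the mean of the gene. The column of vehicle replicate 1 is mostly red, with 7 of 35 genes below their mean, and that of CM-695 replicate 3 mostly blue, with 26 below.

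In the group of lipid handling, Apoe, which encodes the main lipid carrier of the brain, was 8.71, 8.60 and 8.75 with vehicle and 8.63, 8.65 and 8.60 with CM-695. It was 8.47, 8.59 and 8.61 with CM-414, and 8.79, 8.83 and 8.58 with SAHA and tadalafil. The groups overlapped, and the log2 fold changes of -0.06 ± 0.09, -0.13 ± 0.09 and 0.05 ± 0.09 did not pass the threshold. Lpl, a lipase that releases fatty acids from lipoproteins, was 8.93, 8.48 and 8.89 with vehicle and 8.73, 8.69 and 8.63 with CM-695. It was 8.57, 8.82 and 8.53 with CM-414, and 8.33, 8.46 and 8.73 with SAHA and tadalafil. Vehicle replicate 2 was low for this gene, and the fold change with SAHA and tadalafil moved from -0.26 (unadjusted p = 0.0874 from limma) to -0.41 (unadjusted p = 0.00975 from limma) without it.

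Ch25h, which makes 25-hydroxycholesterol, was 6.0, 6.12 and 6.14 with vehicle and 6.22, 6.19 and 6.25 with CM-695. It was 6.30, 6.28 and 6.30 with CM-414, and 6.12, 6.03 and 6.43 with SAHA and tadalafil. The CM-695 and CM-414 arrays lay above all vehicle arrays, with log2 fold changes of 0.13 ± 0.09 (unadjusted p = 0.187 from limma) and 0.20 ± 0.10 (unadjusted p = 0.0681 from limma). A second probe set of Ch25h gave log2 fold changes of -0.10 (CM-695) and 0.13 (CM-414), so that the probe sets disagreed in sign for CM-695. The fatty acid carrier Fabp5 and the lipid droplet protein Plin2 overlapped with vehicle in all comparisons, with log2 fold changes from -0.15 to 0.03. For Fabp5, the other probe sets with CM-414 were lower, between -0.38 and -0.20, than the brightest at -0.03. With SAHA and tadalafil they were higher, between 0.19 and 0.22, than the brightest at 0.03.

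Among the secreted signals, the chemokine gene Ccl6 was 5.77, 5.62 and 5.47 with vehicle and 5.47, 5.51 and 4.92 with CM-695. It was 5.14, 5.37 and 5.11 with CM-414, and 5.45, 5.17 and 5.24 with SAHA and tadalafil. The arrays of CM-414 and of SAHA and tadalafil lay below all vehicle arrays, and those of CM-695 overlapped with them. The log2 fold change was -0.42 ± 0.16 with CM-414 (unadjusted p = 0.0221, adjusted p = 0.471 from limma). It was -0.33 ± 0.16 with SAHA and tadalafil (unadjusted p = 0.0564 from limma) and -0.32 ± 0.18 with CM-695 (unadjusted p = 0.111 from limma). Fitted on the 6 arrays of vehicle and CM-414 alone, Ccl6 passed the threshold with a limma p of 0.00926.

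The chemokine genes Ccl3 and Ccl4, the microglial growth factor Csf1, the lectin Lgals3 and its binding partner Lgals3bp overlapped with vehicle in every comparison, with log2 fold changes from -0.20 to 0.43. The highest of these values was that of Ccl3 with CM-414 (0.43 ± 0.25, unadjusted p = 0.107 from limma). Ccl3 was 6.74, 6.18 and 6.64 with vehicle, 6.48, 6.79 and 5.70 with CM-695, and 7.09, 7.12 and 6.65 with CM-414. CM-695 replicate 3 was again the lowest array. For Lgals3bp, a second probe set gave a log2 fold change of 0.10 with CM-695, where the brightest gave -0.07.

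The last group joins Cybb, Fth1, Capg and Ank. Cybb, the catalytic subunit of the phagocyte NADPH oxidase, was 6.17, 5.89 and 5.93 on the vehicle arrays and 5.67, 5.64 and 5.64 with CM-695. It was 5.98, 5.87 and 6.08 with CM-414, and 5.93, 6.21 and 5.59 with SAHA and tadalafil. The CM-695 arrays lay close together and below all vehicle arrays, while the CM-414 arrays overlapped with vehicle. The log2 fold change with CM-695 was -0.35 ± 0.11 (unadjusted p = 0.0141, adjusted p = 0.888 from limma). With CM-414 it was -0.02 and with SAHA and tadalafil -0.09. The difference between CM-695 and CM-414 was -0.33 (95% interval -0.64 to -0.02, unadjusted p = 0.038, adjusted p = 0.856 from limma).

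Ank, a transporter of pyrophosphate, was 10.07, 9.99 and 10.03 with vehicle and 10.33, 10.21 and 9.92 with CM-695. It was 10.21, 10.23 and 10.28 with CM-414, above all vehicle arrays (log2 fold change 0.21 ± 0.10, unadjusted p = 0.0615 from limma), and 10.12, 10.09 and 10.02 with SAHA and tadalafil. The iron store subunit Fth1 and the actin-capping protein Capg overlapped with vehicle in all comparisons, with log2 fold changes from -0.09 to 0.07.

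The treatments were also set against each other, in 3 pairs and with an F test over the 4 groups. As the doses of CM-414 and of SAHA and tadalafil are not given, these are differences between the treatments as they were used. Between CM-695 and CM-414, 0 of the 35 genes passed an unadjusted limma p under 0.01 (1.11% of all probe sets did), and 2 genes, Ccl3 and Cybb, were lower with CM-695 at a p under 0.05, where 3.41% of all probe sets were. Between CM-695 and SAHA and tadalafil, 0 of the 35 passed (1.74% of all probe sets did), and 2 genes, Gpnmb and Cd68, were lower with CM-695 at a p under 0.05, where 3.64% of all probe sets were. Gpnmb differed by -0.50 (95% interval -0.86 to -0.14, unadjusted p = 0.0105, adjusted p = 0.572 from limma), and its CM-695 arrays lay below all arrays of SAHA and tadalafil. Between CM-414 and SAHA and tadalafil, Timp2 was higher with CM-414 by 0.26 (95% interval 0.08 to 0.44, unadjusted p = 0.00945, adjusted p = 0.766 from limma), where 0.694% of all probe sets were higher at this threshold and 1.18% passed it in either direction. At a p under 0.05, 1 gene, Ccl4, was lower with CM-414 in this pair, where 2.62% of all probe sets were, and Timp2 was the 1 gene higher, where 3.85% were. For Gpnmb, CM-695 and CM-414 differed by -0.30, with a 95% interval from -0.66 to 0.06. In the F test 0 of the 35 genes passed an unadjusted p under 0.01 (1.62% of all probe sets did), and 2 genes, Gpnmb and Timp2, passed 0.05 as 7.53% of all probe sets did (unadjusted p = 0.0123 and 0.024, adjusted p = 0.611 and 0.636 from limma).

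The genes of the resting state of microglia were measured beside the set. Of 13 measured homeostatic genes, Fcrls, an Fc receptor-like gene of microglia, was lower at an unadjusted limma p under 0.01 with CM-695 (log2 fold change -0.78 ± 0.22). With CM-414, Fcrls (-1.01 ± 0.21) and the cystatin gene Cst3 (-0.33 ± 0.09) were lower at this threshold, and with SAHA and tadalafil 0 were. Negative log2 fold changes were found for 10, 12 and 11 of the 13 genes, with medians of -0.14, -0.25 and -0.075. Their mean log2 intensity per array lay between 8.03 and 8.24 with vehicle, 7.89 and 8.10 with CM-695, 7.78 and 7.93 with CM-414, and 7.90 and 8.15 with SAHA and tadalafil. For this list all CM-414 arrays were thus below all vehicle arrays. The median of the plaque-associated genes was -0.033 there, and the difference between the lists was not tested. Of 12 genes shared by all microglia and macrophages, such as Aif1 and Spi1, 0 passed the threshold, and 8, 7 and 8 had negative log2 fold changes with medians of -0.19, -0.091 and -0.063. Their mean per array ranged from 6.88 to 7.28 with vehicle, 6.75 to 7.13 with CM-695, 6.90 to 7.05 with CM-414 and 6.91 to 7.15 with SAHA and tadalafil, so that all groups overlapped. The part of these microglial levels in the changes of Gpnmb, Tyrobp and Ccl6 was not tested.

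A second list of 16 plaque-associated genes outside the set, among them Igf1 and Cd84, held 0 genes at an unadjusted limma p under 0.01 among the 15 tested in each comparison, and its medians were -0.061, -0.021 and -0.0071. Of 16 other measured lysosomal genes, Asah1, the acid ceramidase, was higher at this threshold with CM-695 and with SAHA and tadalafil. Of all probe sets, 0.364% and 0.56% were higher there. Asah1 is named because it passed the threshold, and the comparisons share the vehicle arrays. Its log2 fold change was 0.39 with CM-695 (unadjusted p = 0.00903 from limma), 0.31 with CM-414 (0.0108) and 0.37 with SAHA and tadalafil (0.00383). The medians of this list were 0.045, 0.019 and 0.016, with 4, 6 and 5 of 16 genes negative.

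Among markers of other cells, few genes passed the threshold, and those that did were often not followed by the rest of their list. With CM-414 the astrocyte gene Sox9 (-0.36) was lower, but 4 of 9 astrocyte genes had negative log2 fold changes, with a median of 0.042. The neuronal gene Tubb3 (-0.45) was lower with CM-414, but 2 of 9 neuronal genes were negative, with a median of 0.045. The oligodendrocyte gene Ugt8a (-0.72) was lower with CM-414, where 5 of 7 genes were negative with a median of -0.16. Of the precursor genes, Olig1 (-0.58) and Sox10 (-0.45) were lower with CM-414, where 5 of 6 were negative with a median of -0.18, and Olig2 (0.59) was higher with CM-695, where 2 of 6 were negative with a median of 0.081. The endothelial transporter gene Slco1a4 was higher with CM-414 (0.47) and with SAHA and tadalafil (0.43), although 6 of 8 endothelial and pericyte genes were negative with CM-414 (median -0.12) and 4 of 8 with SAHA and tadalafil (median 0.014). Each of these single genes had an unadjusted limma p under 0.01.

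The other marker lists held 0 genes under that threshold. The medians were -0.019, -0.022 and 0.044 for perivascular macrophages (8 genes), -0.10, -0.025 and -0.082 for monocytes and neutrophils (8 genes), and 0.0054, -0.016 and -0.078 for lymphocytes (7 genes). Choroid plexus (6 genes) and thalamus and habenula (9 genes) mark tissue next to the hippocampus. The thalamus and habenula genes had medians of -0.25, -0.35 and -0.089, with 7, 6 and 6 of 9 negative. Their mean log2 intensity per array ranged from 7.14 to 7.98 with vehicle, 7.25 to 7.33 with CM-695, 7.24 to 7.30 with CM-414 and 7.22 to 7.95 with SAHA and tadalafil. The choroid plexus genes had medians of -0.18, -0.28 and 0.11. Their mean ranged from 7.80 to 8.97 with vehicle, 7.80 to 9.04 with CM-695, 7.50 to 8.73 with CM-414 and 7.71 to 9.08 with SAHA and tadalafil. Red blood cell genes had 0 of 5 with a probe set of their own. The part of these markers in the results was not tested.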

How the data were processed

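Affymetrix Mouse Gene 2.0 ST arrays measured the RNA of 12 hippocampal samples. The authors corrected the background and normalized with RMA (version not given in the sources used here), and the deposited values are log2 intensities. From these, tests (two-sided) were computed in R 4.3.3 by lmFit and eBayes of limma 3.58.1, on probe sets over a log2 value of 4 on all arrays of both groups (35195 for CM-695, 35303 for CM-414 and 35199 for SAHA and tadalafil, each against vehicle, and 34785 for the F test), with Benjamini-Hochberg adjustment. CM-695 against vehicle used 6 arrays, as in the study's methods, and all other comparisons 12. The methods report fewer probe sets after their filter than were kept here, for a reason that was not tested. The adjusted p-values and the shares of all probe sets are therefore not those of the study. The threshold of an unadjusted p under 0.01 is that of the methods. An array has no read depth, so precision is limited by the number of arrays. Values ± are standard errors.

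Members, lists and tests were chosen with earlier results of these data known. Single-array values are given for genes under an unadjusted p of 0.01 or without overlap with vehicle, and for Trem2, Tyrobp, Apoe, Cst7, Itgax, Clec7a, Gpnmb, Lpl, Axl, Ctsd, Ctsb and Cd68. From other lists, genes under 0.01 are named. Cybb, Ccl3 and Blnk are described further because of their values.

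Alternatives were other filters, the other set of arrays, a replicate block, repeated quantile normalization, centring, other priors, array weights, the mean of all probe sets and leaving out arrays. Counts of genes without overlap after leaving out the arrays set apart were added after seeing the data. The fits were tested on simulated data. Plots came from Python 3.11.15 with matplotlib 3.10.9.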

Additional observations from a re-analysis of the deposited data

How the results depend on the processing

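Results kept their direction and side of the threshold in 971 of the alternatives run for single genes, changed direction in 34, passed the threshold in 6 and lost it in 14. Leaving out each replicate in turn gave 0 to 1 genes lower at an unadjusted limma p under 0.01 with CM-695, 0 to 1 higher with CM-414 and 0 to 1 lower with SAHA and tadalafil, and medians from -0.12 to -0.0031, from -0.13 to 0.038 and from -0.08 to 0.059. Without the arrays that stand apart, 0 genes were lower with CM-695 (Gpnmb -0.72, unadjusted p = 0.0211 from limma), while with CM-414 1 was lower and 0 higher and the median was -0.13, and with SAHA and tadalafil the median was -0.064. With array weights, 2 genes were lower with CM-695 (Gpnmb and Cybb), and 2 were lower (Tyrobp and Ccl6) and 0 higher with CM-414, and the median with SAHA and tadalafil was -0.064. On the 6 arrays of its own groups, CM-414 gave 1 gene lower (Ccl6) and 0 higher (Timp2 unadjusted p = 0.0292 from limma), and with repeated quantile normalization 0 higher (Timp2 unadjusted p = 0.0182 from limma). The cause was not tested.

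The deviations of arrays with the same replicate number correlated between -0.317 and 0.155. Arrays with different numbers were not correlated for reference, so these values cannot show whether the numbers pair the arrays. With the replicate number as a block, 1 gene was lower with CM-695, the count with CM-414 was 0 (Timp2 unadjusted p = 0.0151 from limma), and it was 0 with SAHA and tadalafil.

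Some genes changed direction. With CM-695, Ctsb was -0.01 with array weights and -0.09 to 0.13 when arrays were left out in turn, and Clec7a 0.21 without the arrays that stand apart and -0.32 to 0.10. With CM-414, Cd68 ranged from -0.12 to 0.08 and Cybb from -0.07 to 0.07. With SAHA and tadalafil, Ctsb was 0.01 with repeated quantile normalization, Cd68, Apoe and Timp2 were -0.08, -0.01 and -0.02 with array weights, and Cd68 and Apoe -0.11 and -0.03 without the arrays that stand apart. When arrays were left out in turn there, the ranges were -0.05 to 0.13 for Trem2, -0.42 to 0.01 for Clec7a, -0.24 to 0.02 for Gpnmb, -0.05 to 0.03 for Axl, -0.09 to 0.06 for Ctsb, -0.09 to 0.11 for Cd68, 0 to 0.12 for Apoe, -0.01 to 0.19 for Ch25h, -0.05 to 0.04 for Timp2 and -0.24 to 0.07 for Cybb.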
